A study of Mus musculus with 4 samples.

Results

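Described here are *Txnip*, the arrestin domain genes *Arrdc1*, *Arrdc2*, *Arrdc3* and *Arrdc4*, and the transcription factor genes *Mlx*, *Mlxip* and *Mlxipl*, which were chosen by name as 8 of the 29676 gene names on the array. They were represented by 14 probes, of which 13 were bright enough for the comparison of groups. The genes had been picked with their difference between untreated and deprived cultures already known, so that this difference is given for them as a description, without a test. The samples were astrocyte-enriched cultures (AECs), made from the cerebral cortex of newborn ICR mouse pups, in which both groups had been depleted of microglia by PLX3397, which blocks the receptor that microglia need for survival. AECs were left untreated (n = 2) or kept under oxygen-glucose deprivation (OGD), that is, in medium without glucose and under hypoxia, for 15 h (n = 2). Each culture pooled the cortices of several pups, and each RNA sample was hybridized to its own array in a single color.

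TXNIP and the proteins of the *Arrdc* genes are alpha-arrestins, adaptors that bring ubiquitin ligases of the Nedd4 family to membrane proteins and so send them into the cell. TXNIP also binds thioredoxin, and it promotes the internalization of the glucose transporters GLUT1 and GLUT4. MLX pairs with MondoA (*Mlxip*) or with ChREBP (*Mlxipl*), and these pairs enter the nucleus when glucose phosphates accumulate and switch on *Txnip*, *Arrdc4* and genes of sugar and lipid metabolism through carbohydrate response elements in their promoters.

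The letters at the promoters and in the probes are shown first, because the results turn on *Txnip* and on a pair of *Arrdc4* probes. The promoter of *Txnip* is shown as the 250 bases before the gene start in RefSeq (GRCm38.p6, chr3:96557707-96557956, plus strand). Capitals mark a match to a form of the carbohydrate response element, searched on both strands as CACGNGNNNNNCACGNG. This form is a direct repeat of CACGNG with 5 bases between the copies. Elements with other letters or another orientation of the sites were not searched.

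*Txnip* promoter: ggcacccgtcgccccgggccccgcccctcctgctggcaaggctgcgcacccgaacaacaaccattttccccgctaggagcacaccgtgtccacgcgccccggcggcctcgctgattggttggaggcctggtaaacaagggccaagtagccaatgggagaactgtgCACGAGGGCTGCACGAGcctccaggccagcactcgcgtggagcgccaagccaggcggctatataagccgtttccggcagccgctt

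The match began 85 bases before the start. Among 32851 mouse promoter windows of 300 bases (250 before and 50 after a start), 16 held this pattern (0.0487%), and *Txnip* was the only member among them. The promoter of *Arrdc4* (GRCm38.p6, chr7:68749239-68749488, minus strand) is shown beside it with its single E-box, CACGTG, in capitals.

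*Arrdc4* promoter: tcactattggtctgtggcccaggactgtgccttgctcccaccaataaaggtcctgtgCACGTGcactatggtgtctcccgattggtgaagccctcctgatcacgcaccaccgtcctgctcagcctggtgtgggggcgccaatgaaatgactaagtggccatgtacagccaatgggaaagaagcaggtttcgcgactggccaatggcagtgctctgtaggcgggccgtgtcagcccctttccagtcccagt

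CACGTG was present in 2349 of the windows (7.15%), and in those of 3 of the 8 members, at 193 bases before the start of *Arrdc4*, 98 before that of *Mlxipl* and 40 before that of *Mlx*. The same letters can occur outside these windows, and a match is not evidence of binding. The lack of a match does not show that a promoter lacks the element, since other forms were not searched. The probes on which most of the values rest are given next. For *Txnip*, both probes were assigned to the same transcript (NM_001009935), with A_51_P438805 farther along it, and the first 30 bases of each are shown.

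*Txnip* A_55_P2006255 (mm9, chr3:96364206-96364265): tggacgactctcaagacagccctatcttta

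*Txnip* A_51_P438805 (mm9, chr3:96365147-96365206): ctaaggtgatgttcttagcactttagcttg

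For *Arrdc4*, the array design assigned A_55_P2101191 to transcript variant 2 (NM_025549) and A_51_P111612 to variant 1 (NM_001042592). The gene is on the minus strand, and the probe of variant 2 lay 4591 bases nearer the gene start. The first 30 bases of each are shown, with the letters AATAAA, which is the usual signal for cutting and polyadenylation of a transcript, in capitals.

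*Arrdc4* A_55_P2101191, variant 2 (mm9, chr7:75886496-75886555): catcagagtggactactccttagctgtaat

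*Arrdc4* A_51_P111612, variant 1 (mm9, chr7:75881905-75881964): ccaaggggaaAATAAAgattgtattttgta

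The brighter of the *Mlxipl* probes is shown because of its sequence. Capitals in its bases 23 to 52 mark a run of 15 bases that other probes also held.

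*Mlxipl* A_55_P2045158 (mm9, chr5:135614195-135614252): gcatggtgaTGCACACCTTTAATCccagta

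This probe shared a run of 15 bases with probes of 4 other genes and, on the opposite strand, with 5 probes, and it shared such a run with 36 promoter windows. Only 1.33% of all probes did so with as many windows, and the other 13 member probes did so with 0 to 3. The letters resemble those of an interspersed repeat that is common in the mouse genome, and whether other transcripts added to its signal was not tested.

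Signals are given as the processed signal, an intensity on a linear scale, and as normalized log2 signals, from which each array's 75th percentile had been subtracted. In untreated cultures that percentile stood at 2135 and 2164, and after OGD at 887 and 776, whereas control RNA spiked into each sample before labeling differed by −0.085 on the log2 scale (OGD minus untreated). Scaling on the spiked-in probes therefore lowered every fold change, and the median over all 28254 probes compared moved from 0.18 to −1.11. Both scalings are given for each member. Between 73.7% and 64.5% of the spots on an array were well above background, 0 spots were saturated, and a single slide and scan (1) served all arrays.

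By its brightest probe, each of the 8 members can be given 1 value. With the 75th-percentile scaling, 3 members were more than 2-fold lower after OGD (*Txnip*, *Arrdc2* and *Mlxip*), 1 was more than 2-fold higher (*Arrdc4*), and *Arrdc1*, *Arrdc3*, *Mlx* and *Mlxipl* stayed within 2-fold. Of all 21061 genes compared, 15% were lower and 12.7% higher past the same limit (adjusted p under 0.05 in limma and over 2-fold), and nothing is read from the members' count, since the members were chosen on this difference. After normexp correction *Mlxip* was within 2-fold. With spike-in scaling 7 of the 8 were lower, and *Arrdc4* alone stayed higher. The median log2 fold change was −0.59 over the members and 0.16 over all genes, and −1.88 and −1.13 with spike-in scaling. For 9 of the 13 probes both OGD arrays lay below both untreated arrays, as for 35.5% of the probes with a value on every array, and for 2 they lay above (49.2%).

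**Figure D1:**
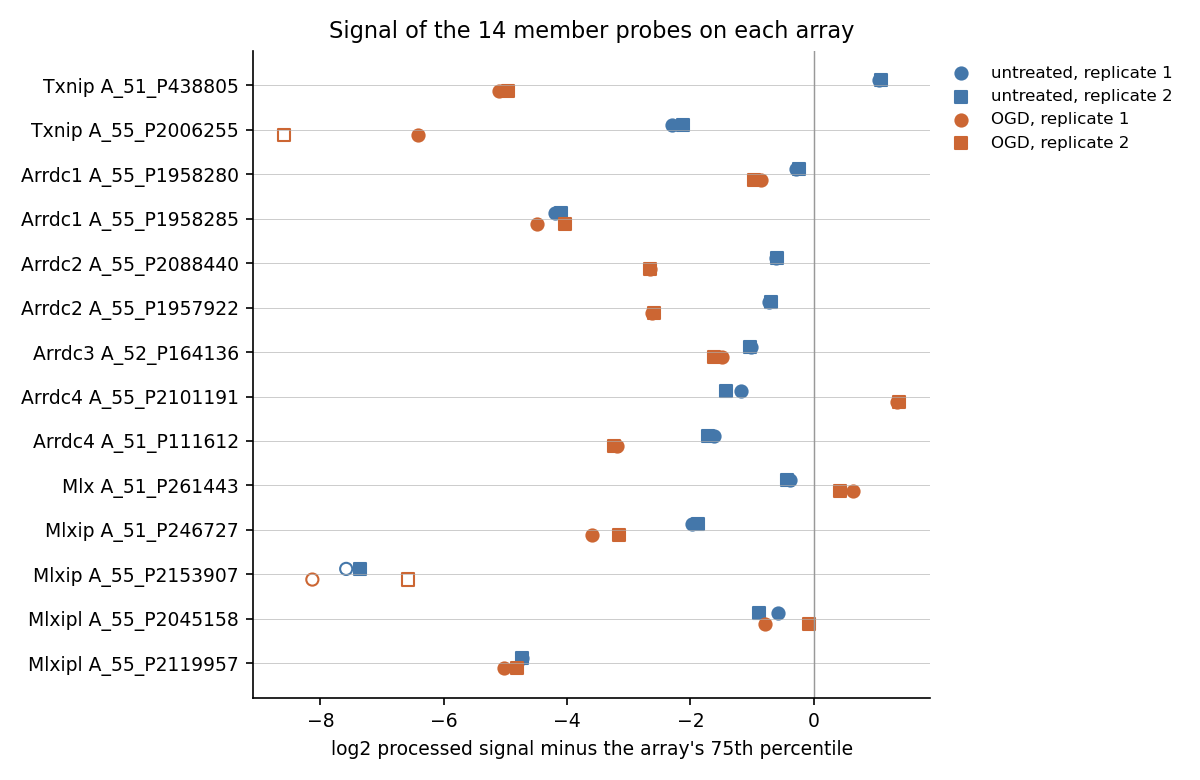
Normalized log2 signal of the 14 member probes (x axis: log2 processed signal minus the array's 75th percentile) on the untreated (blue) and OGD (orange) arrays, with circles for replicate 1 and squares for replicate 2 and open symbols where the probe was not well above background. The *Txnip* probes lie far lower after OGD, and the *Arrdc4* probes lie on opposite sides of their untreated values.

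*Txnip*, the arrestin that binds thioredoxin, showed the widest gap of all members. Its brighter probe, A_51_P438805, had a processed signal of 4460 and 4595 in the untreated cultures and of 25.7 and 24.95 after OGD. On the untreated arrays it was brighter than the 75th percentile of its array, whereas after OGD it was dim but still well above background on both arrays. The log2 fold change of −6.11 (SE 0.092), or 69.0-fold lower, ranked 2 from the lowest of the 28254 probes. The value was −7.40 with spike-in scaling and −4.57 after normexp background correction, which lifts dim signals, so that the size of the decrease depended on how background was handled and its direction did not. In all 16 alternative settings it was lower after OGD.

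The dimmer probe of *Txnip*, A_55_P2006255, gave 436 and 496 before and 10.4 and 2.02 after OGD. The last of these values was not well above background, and the SDs of the normalized log2 signal were 0.12 in untreated cultures and 1.54 after OGD. The fitted log2 fold change of −5.29 (SE 0.79) therefore has no firm size. It was −6.38 without OGD replicate 1, −4.21 without OGD replicate 2, and −1.64, or 3.11-fold lower, after normexp correction. The direction was the same in the 15 settings in which the probe could be fitted. In bulk samples, fewer cells of a type and less RNA per cell cannot be told apart, for this gene as for the others.

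*Arrdc4*, the arrestin closest to *Txnip* in its known control by glucose, had probes that differed in opposite directions under both scalings. The probe of variant 2 had a processed signal of 940 and 809 in untreated cultures and of 2257 and 2024 after OGD. It was therefore brighter after OGD even before any scaling, while the 75th percentile of the arrays was lower. Its log2 fold change was 2.67 (SE 0.11), or 6.35-fold higher, and remained at 1.38 with spike-in scaling.

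The probe of variant 1 was printed in 10 spots per array, of which 9 were used on each untreated array. Its spots read 650 to 738 and 601 to 694 in untreated cultures and 91.3 to 102 and 73.1 to 89.6 after OGD. No spot after OGD came near any untreated spot, and the coefficient of variation between spots of an array was 3.49% to 6.34%. The log2 fold change was −1.55 (SE 0.084), or 2.92-fold lower, −2.84 with spike-in scaling and −1.04 after normexp correction. Each probe kept its own direction in all 16 settings.

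The ratio of the *Arrdc4* probes within an array is not altered by a scaling that subtracts 1 value from each array, as both main scalings do. The log2 ratio of the variant 1 probe to the variant 2 probe changed by −4.21 (pooled SD 0.081, n = 2 and 2), an 18.6-fold shift. Over the pairings of an untreated with an OGD array it changed by −4.33 to −4.10. With quantile normalization the change was −4.12, and after normexp correction it was −3.55, or 11.7-fold. The deposited values do not say which transcripts the probes met in these cells, and the cause of the shift was not tested. Of 5603 genes with more than 1 probe compared, 144 (2.57%) had a probe called higher and another called lower past 2-fold, and among the 5 members with more than 1 probe *Arrdc4* was the only such case.

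**Figure D2:**
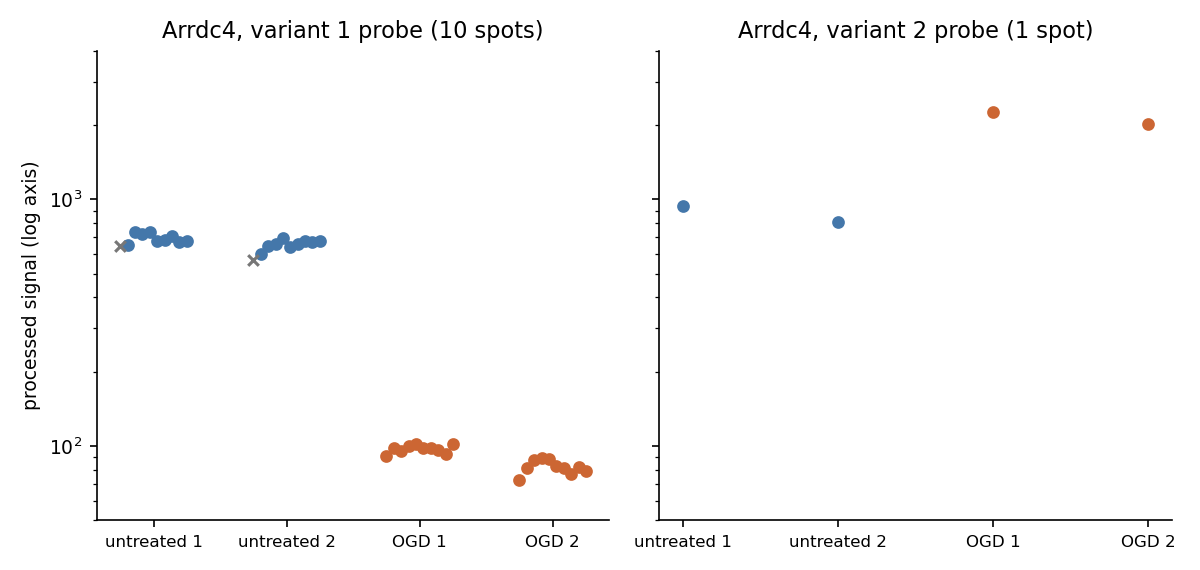
Processed signal (log axis) of each *Arrdc4* spot on the 4 arrays, untreated in blue and OGD in orange, with crosses for spots marked as outliers and left out. The spots used of the variant 1 probe sit between 601 and 738 before and between 73.1 and 102 after OGD, whereas the variant 2 probe lies at 809 and 940 before and at 2024 and 2257 after OGD.

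*Arrdc2*, another alpha-arrestin, was lower after OGD with both of its probes. A_55_P2088440 read 1401 and 1433 before and 141 and 123 after OGD. This corresponded to a log2 fold change of −2.05 (SE 0.074), or 4.15-fold lower, and of −3.34 with spike-in scaling. After normexp correction it was −1.44, or 2.72-fold lower. The other probe, A_55_P1957922, was 3.74-fold lower, but the probes share 49 of their 60 bases, so that they measure almost the same stretch and are not independent.

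*Arrdc3*, which takes the beta2-adrenergic receptor to lysosomes, read 1055 and 1059 before and 315 and 252 after OGD. The groups did not overlap, but much of this gap in signal was the shift of the arrays' 75th percentile. The log2 fold change was −0.54 (SE 0.088), and −1.82 with spike-in scaling. Among all probes compared, 25.1% were lower than that.

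*Arrdc1*, which acts at the plasma membrane in the release of vesicles together with TSG101, had a bright and a dim probe. The bright probe read 1751 and 1826 before and 492 and 396 after OGD, with a log2 fold change of −0.65 (SE 0.087) and of −1.93 with spike-in scaling. The dim probe, at 116 and 126 before and 39.4 and 47.2 after OGD, had overlapping groups after scaling and a log2 fold change of −0.11 (SE 0.18), which was 0.40 after normexp correction. The probes lay 1559 bases apart on mm9, and only the bright one was lower in every setting.

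Among the transcription factors, *Mlx*, the shared partner, and *Mlxip*, which encodes MondoA, differed in direction with the 75th-percentile scaling, and both were lower with spike-in scaling. *Mlx* read 1632 and 1606 before and 1375 and 1037 after OGD. Its raw signal was thus slightly lower, and it was 1.91-fold higher (log2 0.93, SE 0.11) once the 75th percentile was subtracted, but −0.35 on the log2 scale with spike-in scaling. The direction for *Mlx* was that of the 75th percentile in 15 of 16 settings and depended on the reference chosen.

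*Mlxip* read 542 and 591 before and 73.5 and 87.1 after OGD with its brighter probe, A_51_P246727. This was 2.73-fold lower (log2 −1.45, SE 0.18), and −2.74 on the log2 scale with spike-in scaling. After normexp correction it was 1.90-fold lower (log2 −0.93), within the 2-fold limit. Its dim probe, A_55_P2153907, was well above background on 1 untreated array only and was not compared. Within arrays, the log2 ratio of *Mlxip* to *Mlx* changed by −2.38 (pooled SD 0.33), or by −1.75 after normexp correction, and it lay between −2.78 and −1.98 over the pairings of arrays.

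*Mlxipl*, which encodes ChREBP, had no clear direction. The brighter probe, which carries the repeated letters shown above, read 1436 and 1176 before and 510 and 733 after OGD. The normalized values of the groups overlapped, and the log2 fold change was 0.29 (SE 0.29), or −1.002 with spike-in scaling. The dimmer probe read 80.5 and 81.9 before and 27.2 and 27.5 after OGD, with a log2 fold change of −0.20 (SE 0.11), of −1.48 with spike-in scaling and of 0.66 after normexp correction. The sign of either probe thus depended on the processing.

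**Figure D3:**
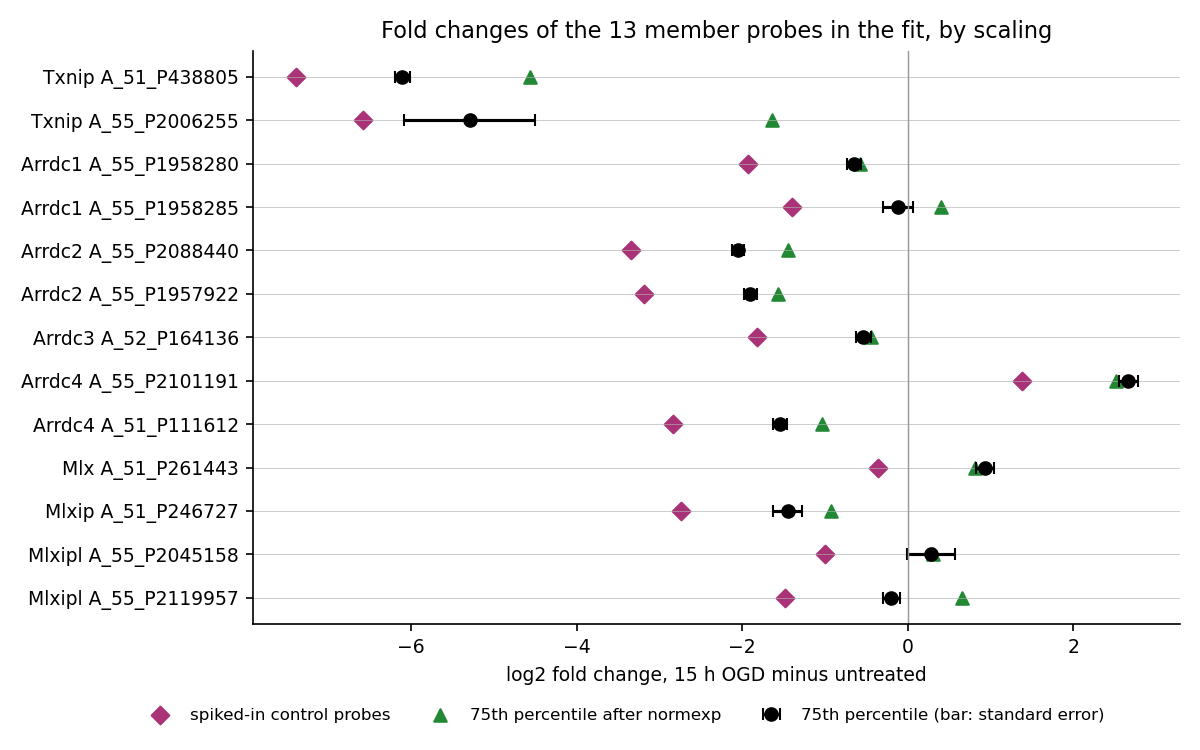
Log2 fold change (15 h OGD minus untreated, x axis) of the 13 member probes under the 75th-percentile scaling (black, bars are the standard error), under spike-in scaling (purple diamonds) and after normexp correction (green triangles). Both *Txnip* probes stay below 0, with the dimmer one at −1.64 after normexp correction, and the variant 2 probe of *Arrdc4* stays above 0, whereas *Mlx* lies at 0.93, or at −0.35 with spike-in scaling.

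As a description of the members side by side, the log2 ratio of *Txnip* to *Mlx* changed by −7.04 within arrays, and that of *Txnip* to *Arrdc3* by −5.57, or by −5.38 and −4.13 after normexp correction. Levels of different probes were not compared with each other, since brightness also depends on the probe.

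**Figure D4:**
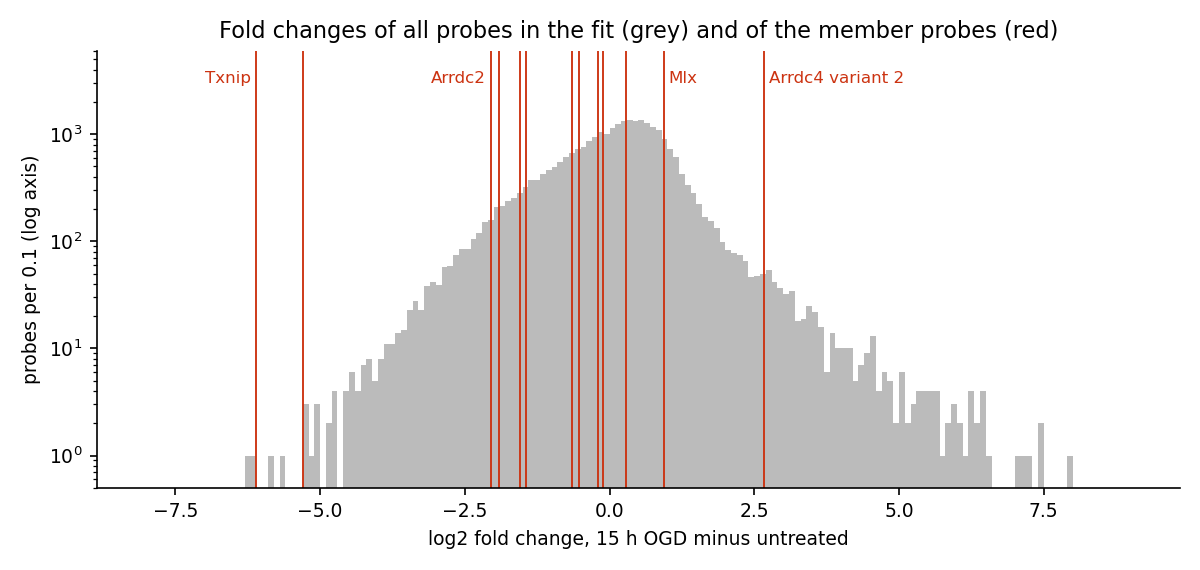
Number of probes (log axis) by log2 fold change in steps of 0.1 (x axis) for the 28254 probes compared, with a red line for each of the 13 member probes. The *Txnip* probes lie at −6.11 and −5.29 in the lower tail, the variant 2 probe of *Arrdc4* at 2.67 in the upper part, and the others between −2.05 and 0.93.

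The probes whose values over the 4 arrays were most like those of *Txnip* were found by the distance between their normalized log2 signals, each centered on its own mean, among 24493 probes well above background on all arrays. They were those of *Lfng* (distance 0.92), *Ndst3* (1.07), *Dyrk1b* (1.07), *Grrp1* (1.55) and *Prtg* (1.64). With 4 arrays in 2 groups, such a likeness reflects mostly a decrease of similar size, from −5.23 for *Lfng* to −4.49 for *Prtg*, and none came as close as the neighbors of *Arrdc4*. Nearest to the variant 1 probe of *Arrdc4* were *Tmpo* (0.019), *Mbd1* (0.030), *Tigd3* (0.034), *Fam161a* (0.036) and *Gm13111* (0.037). Nearest to the variant 2 probe were *C5ar2* (0.044), *Egr2* (0.079), *Slamf9* (0.084), *Tgfbrap1* (0.088) and *Gadd45g* (0.091).

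Target genes of the MLX pairs, other than the members, moved in both directions. Of 20 known from other tissues, 6 were higher and 6 lower past 2-fold after OGD, and 8 were not called, with a median log2 fold change of 0.26. With spike-in scaling, 2 were higher and 9 lower. The shares of all genes were 12.7% and 15%, or 2.01% and 55.7% with spike-in scaling. Of the 6 called lower, 4 had a signal above background in both groups, and other genes of fatty acid synthesis in the list were called higher (*Me1*) or not called (*Acly*, *Scd1* and *Acaca*).

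*Thrsp*, a lipogenic regulator, read 4231 and 4390 before and 196 and 136 after OGD, and fell by 3.35 on the log2 scale (SE 0.14, limma adjusted p = 0.0008), and was at −4.64 with spike-in scaling. *Elovl6*, a fatty acid elongase, fell by 2.44 (SE 0.098, limma adjusted p = 0.000775). *Acacb* and *Fasn*, which make malonyl-CoA and fatty acids, also fell, by 1.79 and 1.72, and *Acacb* was at −1.09 after normexp correction. *Pnpla3* and *G6pc* were the other genes called lower, but neither was well above background after OGD, and both had a log2 fold change above 0 after normexp correction. *Pnpla3* was at least 1.88-fold lower, and no bound could be given for *G6pc*.

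*Fgf21*, which encodes a hormone of fasting and stress, was not well above background in untreated cultures (1.55 and 1.38) and read 150 and 124 after OGD, at least 51.9-fold higher with the 75th-percentile scaling (limma adjusted p = 0.000729). The bound was 21.2-fold with spike-in scaling, and after normexp correction the fitted value was only 8.94-fold, so that the size depended on the processing and the direction did not. *Bhlhe40*, a transcriptional repressor that hypoxia also induces, rose by 2.61 on the log2 scale (SE 0.094, limma adjusted p = 0.000752), and was at 1.32 with spike-in scaling. *Rgs16*, *Pfkfb3*, *Klf10* and *Me1* were the others called higher, at 1.72, 1.47, 1.40 and 1.06, and *Me1* alone of these was below 0 (−0.23) with spike-in scaling. The tandem pattern shown for *Txnip* was in none (0) of the promoter windows found for 15 of these genes. CACGTG was in those of 3 (*Khk*, *Fgf21* and *Pfkfb3*). Other forms of the carbohydrate response element were not searched, so these counts do not show which genes lack it. Of the other genes whose window holds the tandem pattern, 9 were compared, and 0 were called lower and 0 higher past 2-fold. Among all genes 15% were lower and 12.7% higher, so nothing is read from so few genes. Their median log2 fold change was 0.56, beside 0.16 for all genes.

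The Max network of related factors, which bind E-boxes and of which some pair with MLX, had 2 genes higher and 3 lower past 2-fold of 9 compared (median −0.60), beside 12.7% higher and 15% lower among all genes. *Myc*, the growth-promoting factor, rose by 3.52 (SE 0.092, limma adjusted p = 0.000729), with 1331 and 1390 before and 6136 and 5937 after OGD. *Mycn*, its relative of the developing nervous system, fell by 2.17 (SE 0.085, limma adjusted p = 0.000768), and *Mxd3* fell by 1.95, but after normexp correction they were at −0.68 and −0.65, within 2-fold. *Mxd1*, an antagonist of MYC that can also pair with MLX, was at 1.48 with its brightest probe and at −1.35 with another, so that its direction was not settled. With spike-in scaling 1 gene was higher and 6 lower, where 2.01% and 55.7% of all genes were, and *Myc* was still at 2.23.

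In the thioredoxin system, to which TXNIP binds, 0 of 14 genes were called past 2-fold, and 8 were higher and 0 lower by adjusted p alone (shares of all genes 37.1% and 27.8%), with a median of 0.44. These 8 were all below 0 with spike-in scaling, where 5 genes of the list were called lower past 2-fold (55.7% of all genes). *Txn1*, thioredoxin itself, was at 0.42 (SE 0.16, limma adjusted p = 0.0825) and *Txnrd1*, its reductase, was at 0.74 (SE 0.096, limma adjusted p = 0.0052).

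Of 8 genes of arrestin cargo and partners, 2 were higher and 1 lower past 2-fold (median 0.40), beside 12.7% and 15% of all genes. With spike-in scaling 1 was higher and 4 were lower (median −0.89), beside 2.01% and 55.7%. Nothing is read from so few calls. *Slc2a1*, which encodes GLUT1, rose by 1.59 (SE 0.11, limma adjusted p = 0.00155) and *Slc2a3*, which encodes GLUT3, rose by 2.73 (SE 0.11, limma adjusted p = 0.0008). With spike-in scaling they were at 0.30 and 1.44. *Slc11a2*, an iron transporter, was at −3.10 with its brightest probe (limma adjusted p = 0.000729) and at 0.29 with the other, and after normexp correction the brightest probe was at −2.24. *Insr*, the insulin receptor, was at −0.60 with its brightest probe, and another of its probes was called higher at 1.78 (limma adjusted p = 0.00209).

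Among 9 Nedd4-type ligases, which bind the arrestins, 2 were higher and 1 lower past 2-fold (median 0.54), beside 12.7% and 15% of all genes. With spike-in scaling 1 was higher and 2 were lower, beside 2.01% and 55.7%. Nothing is read from these counts either. *Smurf1* rose by 3.40 (SE 0.080, limma adjusted p = 0.000729), from 484 and 516 to 2151 and 1940.3 in processed signal, and was at 2.12 with spike-in scaling. *Hecw1* was called higher at 1.09 but was at −0.20 with spike-in scaling, and *Hecw2* was at −1.75, −2.18 and 1.52 with its 3 probes. *Nedd4*, *Nedd4l*, *Itch*, *Wwp1*, *Wwp2* and *Smurf2* were within 2-fold by their brightest probe, between 0.14 and 0.79. Other probes were called past 2-fold for *Nedd4* (−1.76), *Nedd4l* (−1.75) and *Smurf2* (1.54).

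Of the other arrestin genes, *Arrb1*, a beta-arrestin, fell by 1.02 (SE 0.087, limma adjusted p = 0.0021), just past the 2-fold limit, and the call was lost without untreated replicate 2 and without OGD replicate 2, when 0 genes of this group were called. After normexp correction *Arrb1* was at −0.86, within 2-fold, whereas the dim *Sag* and *Arr3* were at 1.12 and 1.04. *Arrb2*, the other beta-arrestin, was at 0.27 (SE 0.15, limma adjusted p = 0.188). The visual arrestins were dim, with *Sag* not well above background after OGD and *Arr3* at 0.07 (SE 0.16, limma adjusted p = 0.725), and *Arrdc5* was not bright enough to be compared.

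Glucose phosphates are the signal to which MondoA and ChREBP respond. Of 6 genes that make or use glucose 6-phosphate, *Hk2*, the inducible hexokinase, rose by 3.53 (SE 0.077, limma adjusted p = 0.000729), from a processed signal of 3676 and 3649 to 17167 and 15586, and stayed at 2.24 with spike-in scaling. *Hk1*, the hexokinase of brain, was called higher at 1.18 with its brightest probe, but was at −0.11 with spike-in scaling, and its other probes were at 0.11 and 1.85. By their brightest probe the other genes of this group were within 2-fold, from −0.67 for *G6pdx* to 0.98 for *Gpi1*, of which another probe was just past the limit at 1.02. The list thus had 2 genes called higher and 0 lower of 6, beside 12.7% and 15% of all genes. With spike-in scaling 1 was higher and 3 were lower, beside 2.01% and 55.7%. For comparison, targets of the hypoxia-inducible factor HIF-1 were higher past 2-fold in 8 of 10 cases and lower in 0 (median 2.35), beside 12.7% and 15% of all genes. With spike-in scaling 5 were higher and 0 lower, beside 2.01% and 55.7% (median 1.06). With the 75th-percentile scaling the highest were *Ankrd37* (5.92), *Adm* (4.54), *Vegfa* (3.56) and *Bnip3* (3.01), each with a limma adjusted p of 0.000729, and *Ankrd37* was at 4.91 after normexp correction.

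**Figure D5:**
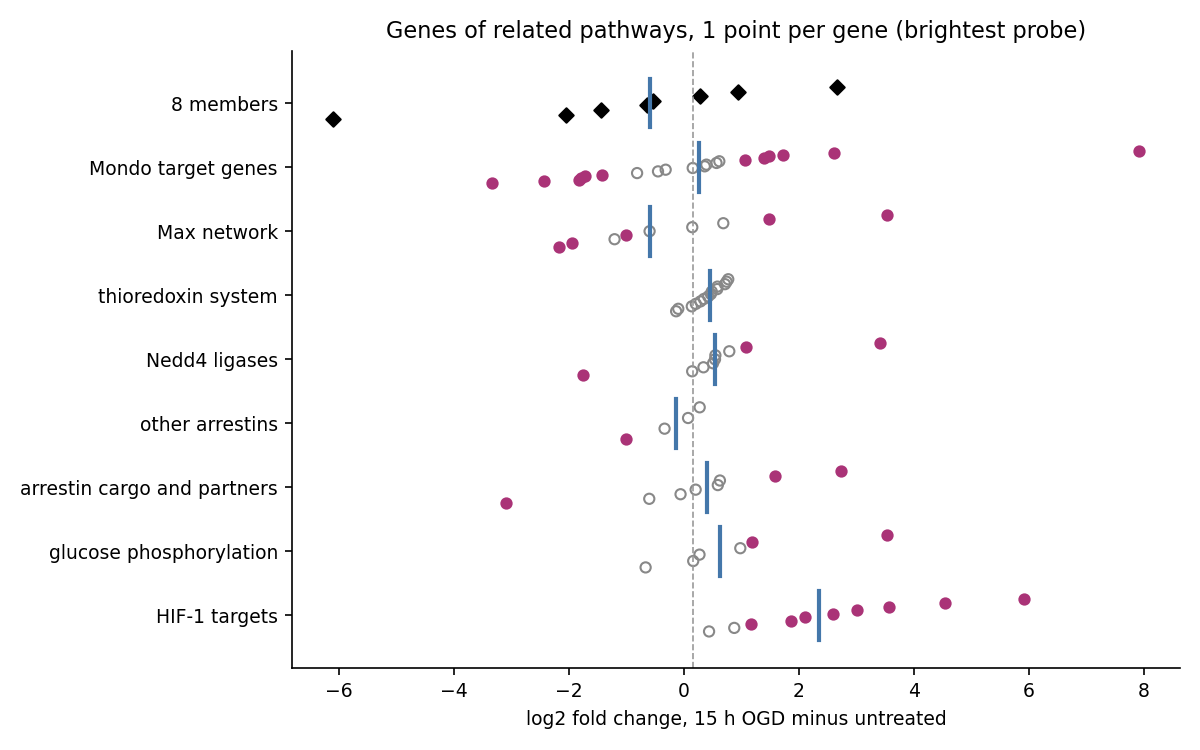
Log2 fold change (15 h OGD minus untreated, x axis) of the members (black diamonds) and of the genes of related pathways, 1 point per gene by its brightest probe, filled where called past 2-fold in limma. Blue bars are the list medians and the dashed line is the median of all genes (0.16), and the list of HIF-1 targets has the highest median, at 2.35. The rightmost point of the Mondo target genes is *Fgf21*, whose untreated signal was not well above background.

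The cultures were checked for the cells they should hold. All 10 astrocyte markers were well above background on every array, and their summed level, in units of the array's 75th percentile, was 158 and 138 untreated and 212 and 215 after OGD. Of 9 microglial markers 6 were well above background on every array, with sums of 4.82 and 4.41 before and 6.93 and 6.64 after OGD. The sums of 8 oligodendrocyte markers (7 well above background) were 29.1 and 29.3 before and 26.2 and 25.4 after OGD. The 3 markers of NG2 glia (2) summed to 0.264 and 0.289 before and 0.352 and 0.310 after OGD, and the 5 neuronal markers (4) to 8.30 and 7.88 before and 8.44 and 8.18 after. Of the 4 fibroblast markers, *Col1a1* had no value on 1 OGD array, where its spot was marked as an outlier, and the other 3 summed to 10.9 and 8.96 before and 10.1 and 7.71 after OGD. Of the 3 endothelial markers (2), *Cldn5* was not well above background on any array, and the sums were 0.140 and 0.133 before and 0.173 and 0.146 after OGD. The mean sum was 1.69-fold lower after OGD for astrocytes and 1.66-fold lower for microglia with spike-in scaling, and 2.76-fold lower for oligodendrocytes, 2.38-fold for neurons, 2.71-fold for fibroblasts, 2.04-fold for NG2 glia and 2.09-fold for endothelium. The sums rest on a few abundant genes, and single markers differed more, such as *Olig2* at −2.50 and *Sox9* at −1.52 on the log2 scale with the 75th-percentile scaling. The part of these cells in the values of the members was not tested.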

How the data were processed

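The authors labeled RNA of 4 samples (2 untreated, 2 after 15 h OGD) with Cy3, hybridized it to mouse arrays and deposited, per spot, the processed signal of Agilent Feature Extraction (11.5.1.1 per the labels), an intensity corrected for background within each array and not normalized between arrays. The series table held the same values.

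Control spots and outlier spots were left out, spots of a probe were averaged as log2, and each array's 75th percentile was subtracted. Probes well above background (at least a fraction of 0.5 of their spots) on both arrays of a group were fitted with limma 3.58.1 in R 4.3.3 with Benjamini-Hochberg adjustment over all 28254 probes. A call needed an adjusted p under 0.05 and a fold over 2, and the 10-fold limit of the methods was counted as well. A bound was the bright group's mean against the dimmest signal well above background. A gene's value is that of its brightest probe. Simulated data (28163 probes, 200 of them changed) were judged by adjusted p alone, without the fold limit. Of 50 probes changed 2-fold, 11 passed, as did 45 of 50 changed 10-fold and 4 unchanged probes. In the real data 37.1% of genes were higher and 27.8% lower by adjusted p alone. So many more features differed there that the simulated rates do not carry over to this comparison.

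The members and lists were chosen with earlier results of these data known. Named were all members with every probe, up to 4 genes of each list with the largest fold change among those called, every gene of a list of 5 or fewer, and the 5 genes most like *Txnip* and *Arrdc4*; other list genes were named after their values were seen. The files do not say which array pairs with which: same-numbered arrays did not deviate together (correlation −0.057), and p-values measure the spread between these cultures only. The number of arrays limits the precision. Probe positions are those of the files (mm9), and promoters are from RefSeq (GRCm38.p6). Counts and plots came from Python 3.11.15 with matplotlib 3.10.9, numpy 2.4.6 and pandas 2.3.3. Tried as alternatives were a replicate block, the methods' t-test, limma with trend and robust prior, normexp (offset 50), quantile, median and spike-in scaling, the percentile over detected probes, other filters, outlier spots kept, the series table, each array left out, and the mean over a gene's probes.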

Additional observations from a re-analysis of the deposited data

How the results depend on the processing

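The scaling and the handling of dim probes moved the counts most. Of 8108 probes past 2-fold and 377 past 10-fold, spike-in scaling gave 16159 and 1227, normexp gave 106 past 10-fold, leaving out the filter gave 13017 past 2-fold, and requiring signal on all 4 arrays gave 240 past 10-fold. Higher probes made up 48.6% of the calls past 2-fold, but 79.5% with normexp, 68.5% without the filter, 37.1% with the percentile over detected probes and 4.05% with spike-in scaling. With spike-in scaling the genes called were 5 instead of 0 in the thioredoxin system, 4 instead of 1 among other arrestins, 5 instead of 3 of arrestin cargo and partners, 4 instead of 2 of glucose phosphorylation and 5 instead of 8 HIF-1 targets. With normexp they were 2 instead of 5 in the Max network and 2 instead of 1 among other arrestins, the dim *Sag* and *Arr3* in place of *Arrb1*. With spike-in scaling *Mlx* reversed, to −0.35, and the bright *Mlxipl* probe turned to −1.002, while the dim probes of *Arrdc1* and *Mlxipl* turned to 0.40 and 0.66 with normexp. The causes were not tested.

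With 1 array left out, 7296 to 8816 probes were called past 2-fold and 368 to 445 past 10-fold, with 0 to 1 of the other arrestins; the lone array of a group was assumed to vary like the other group. The methods' t-test with Benjamini-Hochberg adjustment called 6420 and 349 (16276 probes had an unadjusted p under 0.05). The arrays share only a replicate number, and with it as a block 8046 probes were called past 2-fold and 377 past 10-fold. With the block, 11 Mondo targets were called instead of 12. Of 189 values of member probes under an alternative, 146 moved by less than the replicate spread and 42 by more, besides that of *Mlx*.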
